A study of Mus musculus with 19 samples.

Results

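Amino acid transporter genes were followed across 19 mouse liver tumour libraries. Membership was set by gene symbol alone: rows whose symbol begins with Slc1a, Slc3a, Slc7a, Slc36a, Slc38a or Slc43a and a digit were taken, and they came to 42 of the 19486 genes in the deposited table. Of these, 31 were measured and all 31 entered the test, while 11 stood under a value of 1 in at least 17 of the 19 libraries and were marked as not measured. Membership by symbol also takes in Slc7a6os, a neighbour of Slc7a6 on the opposite strand that is named for its position and is not a transporter, and Slc43a3, a carrier of purine nucleobases.

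The libraries fall into 5 groups, spelled as the labels spell them. MYC_HCC and MYC_Twist1_HCC (n = 5 each) were taken over from an earlier deposit and re-analysed, and MYC_OFF, MYC_Recur and MYC_Twist1_OFF (n = 3 each) were new. All 5 groups are named for MYC, an oncogenic transcription factor, and the tissue given for every library is hepatocellular carcinoma, the main cancer of liver cells. Twist1, a transcription factor known for its part in epithelial to mesenchymal change, is the second gene named in MYC_Twist1_HCC and MYC_Twist1_OFF. The labels give no strain, age, transgene promoter, treatment or time for any group, do not say how OFF or Recur tumours were made, and do not tie libraries to animals, so the p-values measure the spread between these libraries, which may be technical. Group and deposit coincide wherever an HCC group is compared with MYC_OFF, MYC_Recur or MYC_Twist1_OFF, and in those comparisons the 2 cannot be told apart. The contrasts within a deposit are MYC_Twist1_HCC against MYC_HCC, MYC_Recur against MYC_OFF, and MYC_Twist1_OFF against MYC_OFF.

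As background, cells take up amino acids through several families of carriers that work by different means. Heavy chains of family 3 hold light chains of family 7 at the cell surface, and such pairs exchange an amino acid inside the cell for another outside; Slc3a2 with Slc7a5 brings in leucine and other large neutral amino acids, and Slc3a2 with Slc7a11 brings in cystine, the source of cysteine for glutathione. Carriers of families 1 and 38 use the sodium gradient to bring in glutamine, glutamate and other amino acids, family 36 uses protons, and family 43 lets amino acids diffuse. Hepatocytes are known for Slc38a3, Slc38a4 and Slc7a2, whereas Slc7a5, Slc7a11 and Slc1a5 are low in resting liver and higher in many tumours. MYC and the stress factor ATF4 are both known to act on genes of this kind.

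The 250 bases that precede the RefSeq start of 4 of these genes are printed, because 2 of them hold a motif of these factors and the other 2 do not. They come from RefSeq on GRCm38.p6, the assembly that mm10 names, and run 5′ to 3′ on the gene's own strand. The motifs searched, on both strands, were CACGTG, the E-box that MYC binds and which reads the same on either strand, and TGATGNAA, the core of the element through which ATF4 acts; the letters of the 2 motifs do not overlap in any window printed. Capitals mark the matches. Slc7a11 (chr3:50443614-50443863, minus strand) fell in both OFF groups and holds 2 matches to TGATGNAA. Slc36a1 (chr11:55204090-55204339, plus strand) was close to 0 in MYC_Recur and holds 1 match to CACGTG. Slc38a2 (chr15:96699729-96699978, minus strand), lower in both OFF groups, and Slc7a10 (chr7:35186135-35186384, plus strand), higher in both, hold neither.
Slc7a11: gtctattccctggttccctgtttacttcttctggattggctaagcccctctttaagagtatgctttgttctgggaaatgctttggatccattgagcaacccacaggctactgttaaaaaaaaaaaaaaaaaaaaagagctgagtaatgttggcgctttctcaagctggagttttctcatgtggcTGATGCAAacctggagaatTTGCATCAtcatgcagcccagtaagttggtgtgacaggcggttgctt
Slc36a1: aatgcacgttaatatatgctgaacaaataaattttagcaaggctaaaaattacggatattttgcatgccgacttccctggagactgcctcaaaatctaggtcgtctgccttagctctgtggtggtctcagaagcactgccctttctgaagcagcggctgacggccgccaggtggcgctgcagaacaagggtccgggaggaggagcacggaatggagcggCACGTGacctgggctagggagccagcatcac
Slc38a2: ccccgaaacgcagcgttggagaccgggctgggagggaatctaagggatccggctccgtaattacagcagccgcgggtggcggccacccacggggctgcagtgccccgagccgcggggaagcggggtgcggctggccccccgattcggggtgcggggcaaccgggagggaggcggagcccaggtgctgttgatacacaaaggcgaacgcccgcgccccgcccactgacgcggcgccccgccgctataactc
Slc7a10: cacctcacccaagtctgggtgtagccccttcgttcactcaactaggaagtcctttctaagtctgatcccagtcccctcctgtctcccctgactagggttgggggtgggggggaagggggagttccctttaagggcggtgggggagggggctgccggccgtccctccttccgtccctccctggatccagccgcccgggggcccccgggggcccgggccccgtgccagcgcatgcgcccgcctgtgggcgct

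RefSeq windows of the same kind were found for 32 of the 42 genes. They had 43 windows, since a gene can have several starts. CACGTG was present in 7 of the 43 windows, 1 in each of 7 genes (Slc36a1, Slc43a1, Slc38a7, Slc7a14, Slc1a6, Slc1a7 and Slc38a5), and in 6.02% of all 32851 windows of this length. TGATGNAA was present in 3 of the 43 windows, from Slc7a11 and Slc7a7, and in 3.45% of all windows. A match is a description of letters in a window, and the absence of one says only that those letters are not in it.

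Values are the authors' deposited, normalised signal per gene; their formula and the sequencing depth are not known, so levels are compared between libraries and never between genes. Library totals ran from 507868 to 690310. Myc was at 160 ± 19.2 in MYC_HCC, 125 ± 19.3 in MYC_Twist1_HCC, 156 ± 3.14 in MYC_Recur, 45.7 ± 13.1 in MYC_OFF and 39.7 ± 6.65 in MYC_Twist1_OFF (SD, n as above). Twist1 did not exceed 0.12 in any library labelled Twist1 or 0.27 in any other, so the values do not show the labelled difference, and directions drawn from it hold for libraries as labelled. In all groups hepatocyte markers were present: the summed value of 11 of them was 7100 to 13800 in MYC_HCC, 4580 to 6310 in MYC_Twist1_HCC, 5650 to 7330 in MYC_Recur, 4220 to 5110 in MYC_OFF and 3280 to 4510 in MYC_Twist1_OFF. Most of the OFF sums came from Apoh, which averaged 3000 in MYC_OFF and 2450 in MYC_Twist1_OFF. It averaged 314 in MYC_HCC, 548 in MYC_Twist1_HCC and 129 in MYC_Recur. Alb averaged 321 in MYC_OFF and 267 in MYC_Twist1_OFF, against 2410 in MYC_HCC, 1110 in MYC_Twist1_HCC and 1820 in MYC_Recur. MYC_HCC 4 stood apart from the other 4 libraries of its group. Its sums were 13800 against 7100 to 8790 for hepatocyte markers and 93.9 against 15.6 to 26.2 for endothelial markers. They were 141 against 32.2 to 76.6 for stellate cell and fibroblast markers, and 12.2 against 59.2 to 77.9 for cholangiocyte and progenitor markers. Where leaving out MYC_HCC 4 alone changed the call of a measured gene in an OFF comparison, the result is given with and without it. Other values and means of MYC_HCC take it in.

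**Figure D1:**
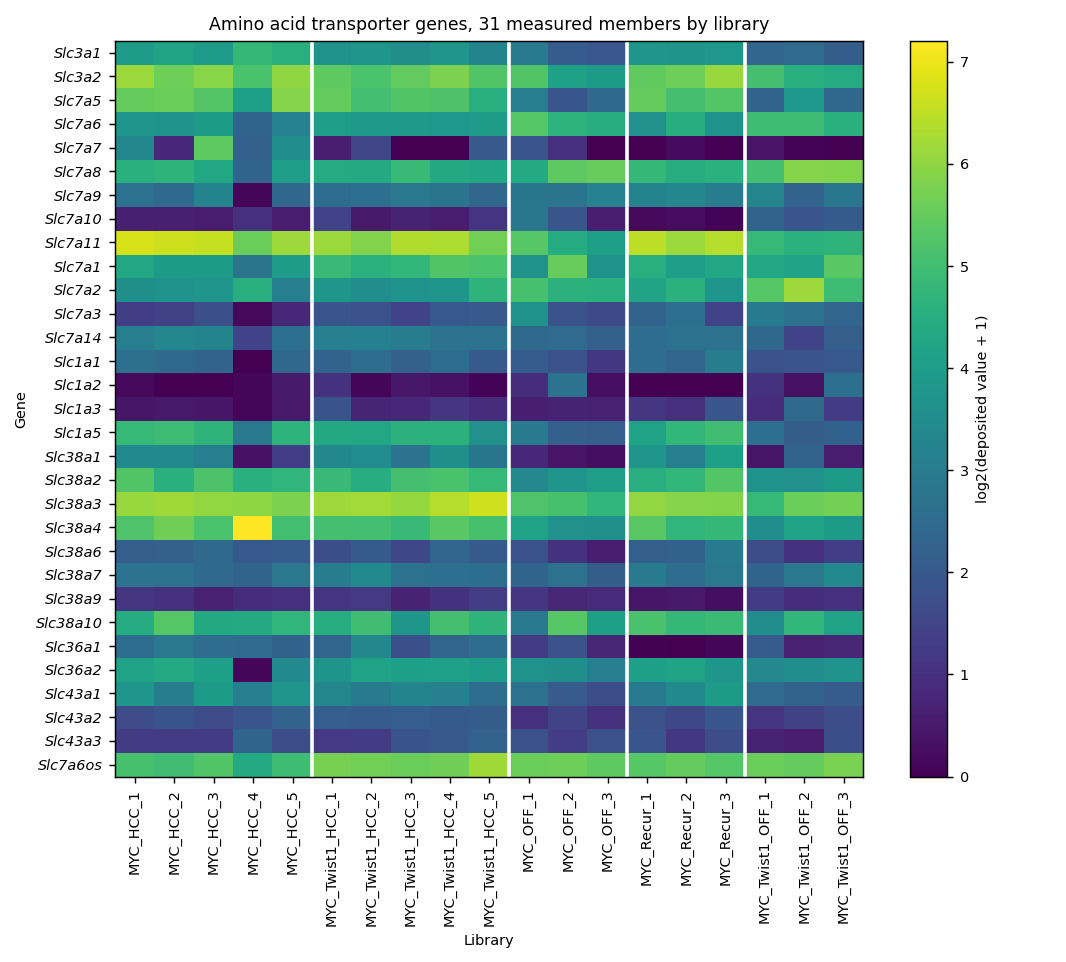
Colour shows log2(deposited value + 1) of the 31 measured genes (rows, in order of role) in the 19 libraries (columns), with white lines between groups. Slc7a5, Slc7a11 and Slc1a5 are darker in the 6 OFF libraries than in most others, and Slc36a1 is darkest in the 3 MYC_Recur libraries.

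The first question was how these genes stood in the groups labelled OFF. Both heavy chains, the light chains Slc7a5 and Slc7a11, the glutamine exchanger Slc1a5, 4 members of family 38, Slc36a1 and 2 members of family 43 were lower in both OFF groups than in the HCC group of the same name. The light chains Slc7a6, Slc7a8 and Slc7a10 and the cationic carrier Slc7a2 were higher in both. Slc7a5 fell from 40.8 ± 16 in MYC_HCC to 4.99 ± 2.38 in MYC_OFF, Slc1a5 from 22.6 ± 9.19 to 4.68 ± 1.95 and Slc7a11 from 84.1 ± 24.7 to 25.4 ± 12.3, while Slc7a6 rose from 10.2 ± 4.08 to 28.1 ± 9.46 (mean ± SD, n = 5 and n = 3). At a Benjamini-Hochberg adjusted p under 0.05 in limma, a linear model fitted here on log2(value + 1) over all 13253 genes tested, 7 of the 31 genes were higher and 14 lower in MYC_OFF. Slc7a6os, which is not a transporter, is 1 of the 7. Of all genes tested, 58.3% were called in that comparison, 18.9% higher and 39.4% lower, against 22.6% and 45.2% of the 31 genes, so the shares were near the background. In MYC_Twist1_OFF against MYC_Twist1_HCC, 4 were higher and 13 lower (12.9% and 41.9%), beside 46.6% of all genes called, 13.1% higher and 33.5% lower. The 2 comparisons use no library in common, but both set the new deposit against the earlier one and share 1 fit. Their agreement is therefore not independent of deposit. Of the 31 genes, 12 were lower and 4 higher in both, and none was called in opposite directions. A further 5 were called only in the first and 1 only in the second. Over all genes tested, 30.2% were lower and 11.0% higher in both.

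The median log2 difference was -0.35 over the 31 genes and -0.38 over all genes tested in MYC_OFF against MYC_HCC, and -0.59 and -0.32 in MYC_Twist1_OFF against MYC_Twist1_HCC. The median over all genes depends on the scale: rescaling the libraries by the median of ratios moved it to 0.06 and 0.01 in the 2 comparisons, and the higher share of all calls from 32.5% to 52% and from 28% to 50.8%. The log2 difference of each transporter gene called in these comparisons is therefore followed by its value relative to the median of all genes. That median takes in low genes. Among genes with a mean of at least 5 the median was further from 0, at -0.66 in MYC_OFF and -0.58 in MYC_Twist1_OFF. No called transporter gene changed sign under any of 4 rescalings, but calls were lost and gained. By the median of ratios 9 of the 31 genes were higher and 11 lower in MYC_OFF. In MYC_Twist1_OFF 5 were higher and 8 lower. Hepatocyte markers moved too: 8 of 11 were lower and 1, Apoh, higher in MYC_OFF, and 6 lower and 1 higher in MYC_Twist1_OFF. Of 12 T and NK cell markers 8 were tested and 4 of these were higher in MYC_OFF, where the sum of the 12 was 10.3 to 34.0 against 4.84 to 10 in MYC_HCC. In the MYC_Twist1 groups 3 of the 8 were higher, with sums of 15.8 to 19.8 against 4.79 to 9.47. The sum of 9 endothelial markers was 35.9 to 91.6 in MYC_OFF against 15.6 to 26.2 in MYC_HCC without MYC_HCC 4, which was at 93.9, and 68.3 to 117 in MYC_Twist1_OFF against 13.5 to 24.7 in MYC_Twist1_HCC. In MYC_OFF 2 of the 7 tested were higher and 2 lower: Pecam1 averaged 53.0 against 9.47, while Cdh5 averaged 1.74 against 12.4. Both MYC_HCC means take in MYC_HCC 4. In MYC_Twist1_OFF 2 were higher and 1 lower, and Pecam1 averaged 75.6 against 6.78. The part of these shifts in the transporter values was not tested, and in bulk tissue fewer cells of a type and less RNA per cell cannot be told apart.

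**Figure D2:**
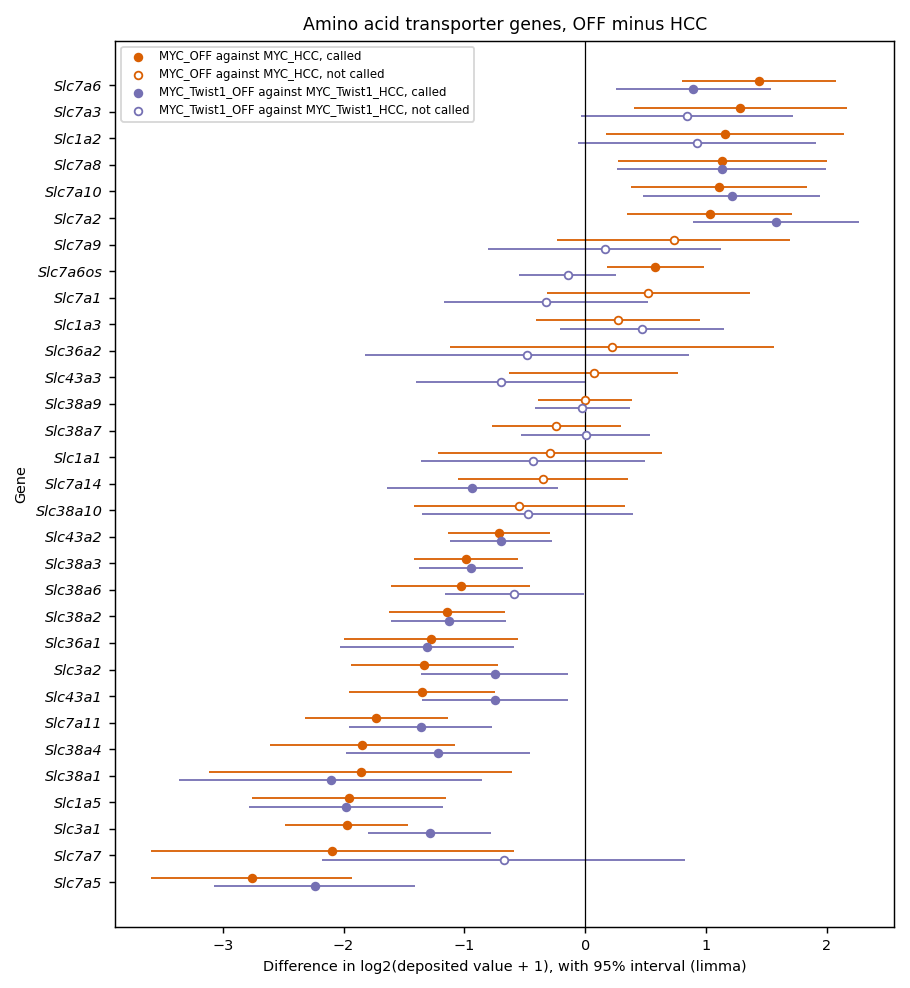
The horizontal axis is the difference in log2(deposited value + 1), OFF minus HCC, with limma's 95% interval, for each measured gene (vertical axis); orange is MYC_OFF against MYC_HCC (n = 3 and 5), purple MYC_Twist1_OFF against MYC_Twist1_HCC (n = 3 and 5), and filled points passed an adjusted p under 0.05. On this scale Slc7a5 has the largest fall in both comparisons, and Slc7a6, Slc7a8, Slc7a10 and Slc7a2 are filled on the right in both.

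Both heavy chains were lower in both OFF groups. Slc3a2 (chromosome 19, 8706882 to 8723369 on GRCm38) encodes the partner of most light chains of family 7. Its values were 68.5, 48, 59.8, 34.4 and 63.6 in MYC_HCC and 41.9, 35.1, 43.8, 54.4 and 37.3 in MYC_Twist1_HCC. They were 37.3, 16.3 and 14.2 in MYC_OFF and 32.6, 22 and 20.8 in MYC_Twist1_OFF. MYC_OFF 1, at 37.3, lay above MYC_HCC 4, at 34.4, and the MYC_OFF and MYC_HCC groups otherwise did not overlap. The mean was 22.6 ± 12.7 in MYC_OFF against 54.9 ± 13.7 in MYC_HCC (log2 difference -1.33, relative to the median -0.95, SE 0.29, adjusted p = 0.000783). In MYC_Twist1_OFF it was 25.1 ± 6.5 against 42.5 ± 7.52 (log2 difference -0.75, relative to the median -0.42, SE 0.29, adjusted p = 0.0422), with no overlap. The second call was lost on scaling by trimmed mean of M values, the median of ratios or the upper quartile (adjusted p = 0.158, 0.375 and 0.363), with no filter on low values (adjusted p = 0.0581) and without any 1 of MYC_Twist1_HCC 1, 3 or 4 or MYC_Twist1_OFF 2 or 3 (adjusted p = 0.062 to 0.142).

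Slc3a1, the heavy chain that carries the cystine and basic amino acid exchanger of kidney and gut, read 14.7, 17.7, 14.7, 26.9 and 22.5 in MYC_HCC and 11.7, 13, 10.9, 12.8 and 8.49 in MYC_Twist1_HCC. It read 6.73, 3.27 and 2.87 in MYC_OFF and 4.06, 4.69 and 3.39 in MYC_Twist1_OFF. Every OFF library was below every HCC library. The difference was called in MYC_OFF (log2 difference -1.97, relative to the median -1.59, SE 0.24, adjusted p = 2.64e-06) and in MYC_Twist1_OFF (log2 difference -1.29, relative to the median -0.96, SE 0.24, adjusted p = 0.000359), and both calls held under every alternative tried (other scalings, pseudocounts, filters and fits, and each library left out in turn; an alternative that leaves a gene out of the test is not counted). Its light chain, Slc7a9, was not called in either: it averaged 4.58 ± 2.98 in MYC_HCC, 5.25 ± 0.8 in MYC_Twist1_HCC, 6.67 ± 1.33 in MYC_OFF and 6.23 ± 2.5 in MYC_Twist1_OFF, with MYC_HCC 4 at 0.10. Scaled by the median of ratios it passed in MYC_OFF, at 1.22 with an adjusted p = 0.0308.

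Of the 7 light chains measured, 3 were lower and 3 higher in MYC_OFF, beside 39.4% of all genes lower and 18.9% higher. Slc7a5 (chromosome 8, 121881150 to 121907694) encodes the light chain for leucine and other large neutral amino acids. Its values were 44.4, 47.4, 37.5, 15.6 and 58.8 in MYC_HCC and 43.9, 32.5, 36.8, 35.3 and 22.1 in MYC_Twist1_HCC. In the OFF groups they were 7.52, 2.79 and 4.65 in MYC_OFF and 3.92, 13.4 and 4.4 in MYC_Twist1_OFF. The lowest HCC library, MYC_HCC 4 at 15.6, was still above the highest OFF library, MYC_Twist1_OFF 2 at 13.5. On log2(value + 1) its fall was the largest of the 31 genes in both comparisons. The log2 difference was -2.76, relative to the median -2.38, SE 0.40, adjusted p = 1.32e-05 in MYC_OFF. It was -2.24, relative to the median -1.92, SE 0.40, adjusted p = 0.000204 in MYC_Twist1_OFF, from a mean of 34.1 ± 7.93 to 7.26 ± 5.37. Both calls held under every alternative, but the ranking depends on the setting. Across the alternatives the lowest value in MYC_OFF was -3.06 for Slc7a5 and -3.30 for Slc7a7. In MYC_Twist1_OFF it was -2.74 for Slc7a5 and -3.04 for Slc38a1.

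Slc7a11 (chromosome 3, 49892526 to 50443614), the cystine and glutamate exchanger whose promoter is printed above with 2 TGATGNAA matches, stood at 107, 100.2, 95, 47.5 and 70.6 in MYC_HCC and 69.2, 56.6, 80.0, 79.6 and 49.9 in MYC_Twist1_HCC. The OFF values were 39.4, 21 and 16 in MYC_OFF and 27.4, 23.1 and 24.9 in MYC_Twist1_OFF. All 6 OFF libraries were below all 10 HCC libraries. The differences were called in MYC_OFF (log2 difference -1.73, relative to the median -1.35, SE 0.28, adjusted p = 5.25e-05) and in MYC_Twist1_OFF (log2 difference -1.36, relative to the median -1.04, SE 0.28, adjusted p = 0.00081), where the mean was 25.1 ± 2.18 against 67 ± 13.6. Neither call was lost under any alternative.

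Slc7a7, the basic and neutral amino acid exchanger that macrophages and gut epithelium are known for, varied widely between libraries of a group. Values were 8.83, 0.79, 41.5, 3.59 and 10.5 in MYC_HCC and 0.51, 1.82, 0, 0 and 3.04 in MYC_Twist1_HCC. They were 2.71, 0.98 and 0 in MYC_OFF and 0.29, 0.05 and 0 in MYC_Twist1_OFF, so the groups overlapped, and 5 of the HCC and OFF libraries were under 0.10. MYC_OFF was called lower (log2 difference -2.09, relative to the median -1.72, SE 0.71, adjusted p = 0.018), but the call was lost with only the compared groups in the fit (adjusted p = 0.0725) and without MYC_OFF 3 (adjusted p = 0.101). MYC_Twist1_OFF was not called (log2 difference -0.68, adjusted p = 0.458). The sum of 10 macrophage and Kupffer cell markers was 200 to 547 in MYC_HCC and 263 to 362 in MYC_OFF, and its part in the Slc7a7 values was not tested.

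The other 3 went the other way. Slc7a6, an exchanger of basic for neutral amino acids (chromosome 8, 106168857 to 106198706), stood at 12.5, 11.8, 14.3, 4.05 and 8.14 in MYC_HCC and 15.3, 13.8, 13.9, 13.4 and 14.8 in MYC_Twist1_HCC. Its OFF values were 39, 24 and 21.4 in MYC_OFF and 30.3, 29.4 and 22.9 in MYC_Twist1_OFF, each above every HCC library. It was called higher in MYC_OFF (log2 difference 1.44, relative to the median 1.82, SE 0.30, adjusted p = 0.000619) and in MYC_Twist1_OFF (log2 difference 0.90, relative to the median 1.22, SE 0.30, adjusted p = 0.0225). The second call was lost without MYC_Twist1_OFF 1 or 2 (adjusted p = 0.0825 and 0.0702). The gene ends 2011 bases from the end of Slc7a6os on the opposite strand, and strand use in the read counting is not given in the sources used here.

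Slc7a8, a light chain for neutral amino acids that partners Slc3a2, read 22.7, 24.6, 19.1, 4 and 15 in MYC_HCC and 20.8, 20.3, 28.7, 19.4 and 17.8 in MYC_Twist1_HCC. In the OFF groups it read 20.1, 41.5 and 45.6 in MYC_OFF and 32, 59 and 56.2 in MYC_Twist1_OFF. MYC_OFF 1, at 20.1, lay inside the MYC_HCC range, and the MYC_Twist1 groups did not overlap. Both differences were called (log2 difference 1.14, relative to the median 1.51, SE 0.41, adjusted p = 0.0247 in MYC_OFF, and log2 difference 1.13, relative to the median 1.45, SE 0.41, adjusted p = 0.0319 in MYC_Twist1_OFF) and both depended on the setting. The call in MYC_OFF was lost with only the compared groups in the fit (adjusted p = 0.098), without both MYC_HCC 4 and 5 (adjusted p = 0.0907) and without MYC_OFF 2 or 3 (adjusted p = 0.0923 and 0.109). The call in MYC_Twist1_OFF was lost with no filter on low values (adjusted p = 0.0522) and without any 1 of MYC_Twist1_HCC 2, 4 or 5 or MYC_Twist1_OFF 2 or 3 (adjusted p = 0.0521 to 0.116).

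Slc7a10, an exchanger of small neutral amino acids such as serine, alanine and glycine, was low everywhere. Its values were 0.56, 0.54, 0.49, 0.95 and 0.48 in MYC_HCC and 1.74, 0.43, 0.61, 0.49 and 1.16 in MYC_Twist1_HCC. The OFF libraries read 6.13, 2.75 and 0.52 in MYC_OFF and 3.91, 2.76 and 3.1 in MYC_Twist1_OFF; MYC_OFF 3, at 0.52, lay within MYC_HCC, and the MYC_Twist1 groups did not overlap. It was called higher in MYC_OFF (log2 difference 1.11, relative to the median 1.49, SE 0.35, adjusted p = 0.011) and in MYC_Twist1_OFF (log2 difference 1.21, relative to the median 1.54, SE 0.35, adjusted p = 0.00864). The MYC_OFF call was lost with only the compared groups in the fit (adjusted p = 0.0515) and without MYC_OFF 1 (adjusted p = 0.12).

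**Figure D3:**
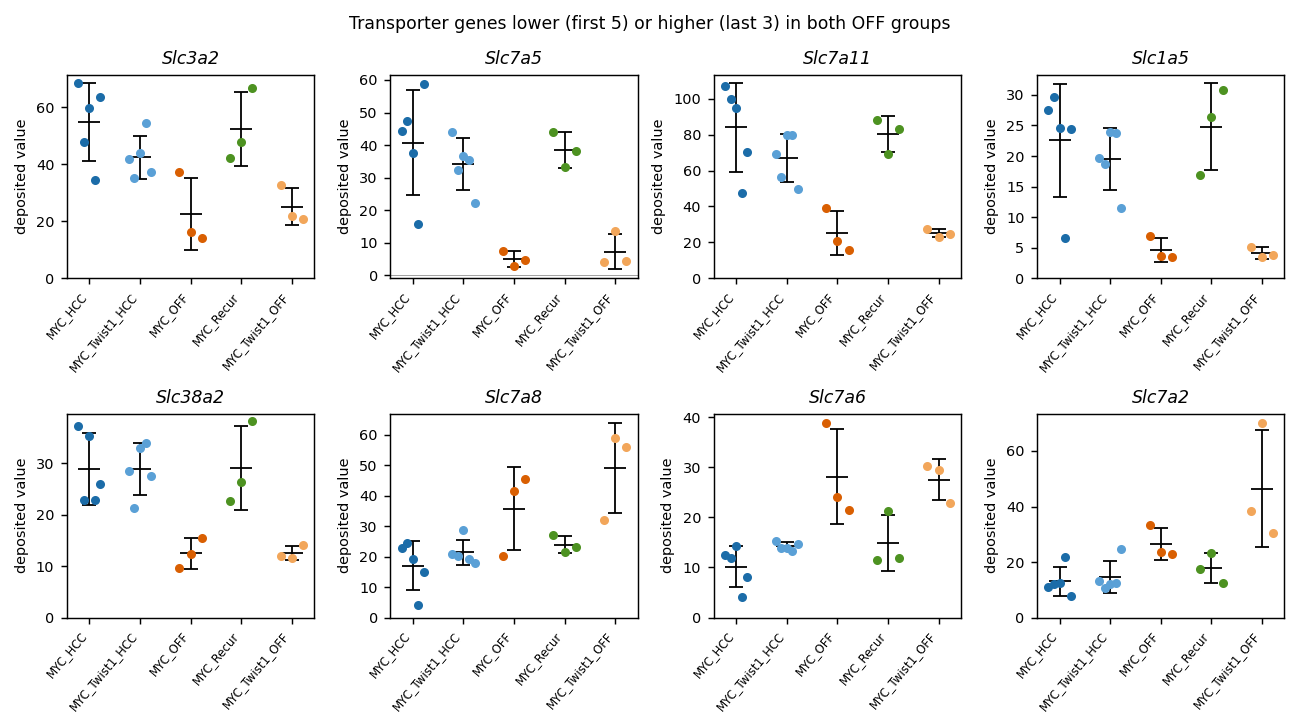
Each panel plots the deposited value of a gene (vertical axis, with a line at 0) in every library (points) by group, with bars for the mean ± SD (n = 5, 5, 3, 3 and 3). The 3 MYC_OFF and 3 MYC_Twist1_OFF libraries lie low for Slc3a2, Slc7a5, Slc7a11, Slc1a5 and Slc38a2 and high for Slc7a8, Slc7a6 and Slc7a2; MYC_OFF 1 overlaps HCC libraries for Slc3a2, Slc1a5 and Slc7a8.

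Among the 4 cationic amino acid carriers measured, which bring in arginine, lysine and ornithine, 2 were higher in MYC_OFF and none lower. The shares of all genes were 18.9% higher and 39.4% lower. Slc7a2, the hepatocyte form, read 11.1, 12, 12.4, 21.9 and 7.62 in MYC_HCC and 13, 10.6, 11.9, 12.6 and 24.6 in MYC_Twist1_HCC. It read 33.2, 23.7 and 22.8 in MYC_OFF and 38.3, 70.2 and 30.6 in MYC_Twist1_OFF. No OFF library overlapped its HCC group, although MYC_HCC 4 and MYC_Twist1_HCC 5, at 21.9 and 24.6, came close. The rises were called in MYC_OFF (log2 difference 1.03, relative to the median 1.41, SE 0.33, adjusted p = 0.0118) and in MYC_Twist1_OFF (log2 difference 1.58, relative to the median 1.91, SE 0.33, adjusted p = 0.000781). The first was lost without MYC_OFF 1 (adjusted p = 0.0607), and the second held throughout.

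Slc7a3 averaged 1.3 ± 0.87 in MYC_HCC and 5.52 ± 5.52 in MYC_OFF, and 2.59 ± 0.52 in MYC_Twist1_HCC and 5.46 ± 1.28 in MYC_Twist1_OFF. It was called in MYC_OFF only (log2 difference 1.28, relative to the median 1.66, SE 0.42, adjusted p = 0.014), with groups that overlapped, and that call was lost with only the compared groups in the fit (adjusted p = 0.0625), without both MYC_HCC 4 and 5 (adjusted p = 0.0886) and without MYC_OFF 1 (adjusted p = 0.16). In MYC_Twist1_OFF it was not called (log2 difference 0.84, adjusted p = 0.107), and scaling by the median of ratios made it so (1.21, adjusted p = 0.0176). Slc7a1, the cationic carrier found in most growing cells, was not called: its means were 13.6 ± 4.82, 29.9 ± 5.88, 23.1 ± 19.2 and 25.1 ± 12.9 in MYC_HCC, MYC_Twist1_HCC, MYC_OFF and MYC_Twist1_OFF, although scaling by the median of ratios put MYC_OFF past the threshold (1.06, adjusted p = 0.0401). Slc7a14, a lysosomal member of this branch, stood at 7.41, 9.18, 8.57, 1.72 and 5.14 in MYC_HCC and 7.62, 7.9, 7.16, 5.73 and 5.76 in MYC_Twist1_HCC. It stood at 4.6, 4.7 and 3.6 in MYC_OFF and 4.38, 1.75 and 3.57 in MYC_Twist1_OFF, and the MYC_Twist1 groups did not overlap. The call there (log2 difference -0.93, relative to the median -0.61, SE 0.34, adjusted p = 0.0302) was lost on scaling by trimmed mean of M values, the median of ratios or the upper quartile (adjusted p = 0.0882, 0.174 and 0.178) and without any 1 of MYC_Twist1_HCC 1, 2 or 3 or MYC_Twist1_OFF 2 (adjusted p = 0.0503 to 0.173). In MYC_OFF the difference was -0.35 with an adjusted p = 0.386, and it passed without MYC_HCC 4, at -0.67 with an adjusted p = 0.0192.

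Family 1 holds the glutamate carriers and the glutamine exchanger Slc1a5. Slc1a5 (chromosome 7, 16781340 to 16798274) exchanges glutamine and other neutral amino acids with sodium, and read 27.5, 29.6, 24.6, 6.59 and 24.3 in MYC_HCC and 19.6, 18.6, 23.9, 23.8 and 11.6 in MYC_Twist1_HCC. Its OFF values were 6.94, 3.59 and 3.52 in MYC_OFF and 5.19, 3.4 and 3.74 in MYC_Twist1_OFF. MYC_HCC 4, at 6.59, was the only HCC library inside the OFF range, just under MYC_OFF 1 at 6.94. Slc1a5 was called lower in MYC_OFF (log2 difference -1.95, relative to the median -1.58, SE 0.38, adjusted p = 0.000303) and in MYC_Twist1_OFF (log2 difference -1.98, relative to the median -1.66, SE 0.38, adjusted p = 0.00044), from a mean of 19.5 ± 5.02 to 4.11 ± 0.95, and both calls held under every alternative.

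Slc1a2, the main glutamate carrier of brain astrocytes and also found in liver, was low and uneven. Values were 0.14, 0, 0, 0.1 and 0.43 in MYC_HCC and 1.04, 0.09, 0.39, 0.26 and 0.04 in MYC_Twist1_HCC. They were 0.93, 5.67 and 0.23 in MYC_OFF and 1.09, 0.24 and 5.15 in MYC_Twist1_OFF, so that 1 library in each OFF group, MYC_OFF 2 and MYC_Twist1_OFF 3, was above 5. MYC_OFF was called higher (log2 difference 1.16, relative to the median 1.54, SE 0.47, adjusted p = 0.0416), and the call was lost with a pseudocount of 5 (adjusted p = 0.066), with no filter on low values (adjusted p = 0.06), with only the compared groups in the fit (adjusted p = 0.0613), without both MYC_HCC 4 and 5 (adjusted p = 0.0593) and without any 1 of MYC_HCC 1, 2, 3 or 4 or MYC_OFF 2 (adjusted p = 0.0562 to 0.387). MYC_Twist1_OFF was not called (log2 difference 0.93, adjusted p = 0.112), and without MYC_Twist1_OFF 2 it was (1.44, adjusted p = 0.0282). Slc1a1, another glutamate carrier, ranged over 3.91 to 5.35 in 4 MYC_HCC libraries and was listed at 0 in MYC_HCC 4. It ranged over 3.12 to 5 in MYC_Twist1_HCC, 1.26 to 3.28 in MYC_OFF and 2.51 to 2.99 in MYC_Twist1_OFF. With MYC_HCC 4 in the fit its MYC_OFF difference was not called (log2 difference -0.29, adjusted p = 0.586); without it the difference was -0.79 with an adjusted p = 0.0078. Slc1a3 averaged 0.32 ± 0.13 in MYC_HCC, 1.23 ± 0.83 in MYC_Twist1_HCC, 0.59 ± 0.06 in MYC_OFF and 2.31 ± 2.02 in MYC_Twist1_OFF, with no call in either OFF comparison.

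Of the 8 members of family 38 measured, 5 were lower and none higher in MYC_OFF, and 4 were lower and none higher in MYC_Twist1_OFF. The shares of all genes tested were 39.4% lower and 18.9% higher in MYC_OFF, and 33.5% and 13.1% in MYC_Twist1_OFF. Slc38a2 (chromosome 15, 96687392 to 96699730) takes up alanine, glutamine and other small neutral amino acids with sodium. It read 37.3, 22.9, 35.3, 22.9 and 26 in MYC_HCC and 28.4, 21.3, 33, 33.9 and 27.4 in MYC_Twist1_HCC. It read 9.54, 12.4 and 15.4 in MYC_OFF and 12, 11.5 and 14.1 in MYC_Twist1_OFF, with all 6 OFF libraries below all 10 HCC libraries. The tests gave a log2 difference of -1.14, relative to the median -0.77, SE 0.23, adjusted p = 0.000352 in MYC_OFF and a log2 difference of -1.13, relative to the median -0.80, SE 0.23, adjusted p = 0.000638 in MYC_Twist1_OFF. The first call was lost on scaling by the median of ratios or the upper quartile (adjusted p = 0.057 and 0.0623), with its direction kept.

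Slc38a1, a glutamine carrier of the same type, differed more. Its values were 9.92, 9.98, 7.59, 0.28 and 1.55 in MYC_HCC and 9.2, 10.2, 5.74, 11.1 and 6 in MYC_Twist1_HCC. They were 0.76, 0.3 and 0.2 in MYC_OFF and 0.33, 3.89 and 0.49 in MYC_Twist1_OFF. MYC_HCC 4, at 0.28, and MYC_HCC 5, at 1.55, lay far below the other 3 libraries of their group, which were at 7.59 to 9.98, and MYC_HCC 4 fell within the MYC_OFF range. The differences were called in MYC_OFF (log2 difference -1.86, relative to the median -1.48, SE 0.60, adjusted p = 0.0127) and in MYC_Twist1_OFF (log2 difference -2.11, relative to the median -1.78, SE 0.60, adjusted p = 0.00807), where the call was lost without MYC_Twist1_OFF 1 (adjusted p = 0.054).

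Slc38a3 and Slc38a4 are hepatocyte carriers, the first for glutamine, asparagine and histidine and the second for neutral and basic amino acids. Slc38a3 read 67.8, 70.8, 64.3, 61.7 and 54.3 in MYC_HCC and 70.2, 73.3, 65.7, 83.9 and 102 in MYC_Twist1_HCC. The OFF libraries read 36.1, 33.8 and 25.6 in MYC_OFF and 27.3, 45.9 and 51 in MYC_Twist1_OFF, and neither pair of groups overlapped. It was called lower in MYC_OFF (log2 difference -0.99, relative to the median -0.61, SE 0.21, adjusted p = 0.000517) and in MYC_Twist1_OFF (log2 difference -0.95, relative to the median -0.62, SE 0.21, adjusted p = 0.00116). The MYC_OFF call was lost on scaling by the median of ratios or the upper quartile (adjusted p = 0.061 and 0.0583). Slc38a4 stood at 36.7, 49.2, 35, 147 and 31.3 in MYC_HCC and 33, 32, 28.4, 40.1 and 33.6 in MYC_Twist1_HCC, so that MYC_HCC 4 was 146.8 where the next library was 49.2. It stood at 16.8, 11.6 and 11.3 in MYC_OFF and 10.5, 17.1 and 14.2 in MYC_Twist1_OFF, again with no overlap. The tests gave a log2 difference of -1.84, relative to the median -1.47, SE 0.36, adjusted p = 0.00033 in MYC_OFF and a log2 difference of -1.22, relative to the median -0.89, SE 0.36, adjusted p = 0.0112 in MYC_Twist1_OFF. The second call was lost on scaling by the median of ratios or the upper quartile (adjusted p = 0.0864 and 0.0791) and without MYC_Twist1_OFF 1 (adjusted p = 0.0629), and the first held, also without MYC_HCC 4.

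Slc38a6, a less studied carrier, read 3.57, 3.59, 4.6, 2.93 and 3.19 in MYC_HCC and 2.35, 3.13, 1.98, 4.09 and 3.09 in MYC_Twist1_HCC. In the OFF groups it read 2.5, 1.08 and 0.51 in MYC_OFF and 2.26, 1.05 and 1.55 in MYC_Twist1_OFF, and MYC_OFF did not overlap MYC_HCC. It was called in MYC_OFF (log2 difference -1.03, relative to the median -0.65, SE 0.27, adjusted p = 0.0038) and not in MYC_Twist1_OFF (log2 difference -0.59, adjusted p = 0.0882). Slc38a7, a lysosomal exporter of glutamine and asparagine, Slc38a9, the lysosomal arginine sensor, and Slc38a10 were not called in either. Slc38a7 averaged 5.23 ± 0.89, 6.57 ± 1.94, 4.31 ± 1.09 and 6.8 ± 2.99 in MYC_HCC, MYC_Twist1_HCC, MYC_OFF and MYC_Twist1_OFF. Slc38a10 averaged 25 ± 7.81, 24.8 ± 7.92, 20.6 ± 16.9 and 17.9 ± 7.93, with MYC_OFF 2 at 39.3 and the other 2 MYC_OFF libraries at 6.55 and 16; without MYC_OFF 2 it was called lower, at -1.15 with an adjusted p = 0.0191.

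Slc36a1 (chromosome 11, 55204350 to 55236330), a proton-coupled carrier of small neutral amino acids at the cell surface and the lysosome, was lower in both OFF groups. Its values were 4.82, 6.46, 4.95, 4.71 and 3.7 in MYC_HCC and 4.06, 9.3, 2.4, 4.07 and 4.97 in MYC_Twist1_HCC. They were 1.43, 2.44 and 0.7 in MYC_OFF and 3.18, 0.59 and 0.71 in MYC_Twist1_OFF. MYC_OFF did not overlap MYC_HCC, whereas MYC_Twist1_OFF 1, at 3.18, lay above MYC_Twist1_HCC 3, at 2.40. The tests gave a log2 difference of -1.28, relative to the median -0.90, SE 0.34, adjusted p = 0.00417 and a log2 difference of -1.31, relative to the median -0.98, SE 0.34, adjusted p = 0.00487, and both held under every alternative. Slc36a2, its neighbour in the genome 19273 bases away and a carrier of glycine and proline, was not called in either: it averaged 15.3 ± 1.89 in MYC_Twist1_HCC, 10.1 ± 2.19 in MYC_OFF and 10.6 ± 1.25 in MYC_Twist1_OFF, and in MYC_HCC it read 16.8, 20.2, 15.9, 0.07 and 9.66. MYC_HCC 4, at 0.07, decides its sign in MYC_OFF against MYC_HCC: the log2 difference was 0.22 (adjusted p = 0.781) with that library and -0.56 (adjusted p = 0.0364) without it. In MYC_Twist1_OFF it passed with only the compared groups in the fit (-0.48, adjusted p = 0.031).

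In family 43, Slc43a1 and Slc43a2, which let large neutral amino acids diffuse, were lower in both OFF groups. Slc43a1 (chromosome 2, 84838850 to 84863594) read 12.4, 7.12, 14.2, 7.69 and 12.5 in MYC_HCC and 8.88, 6.66, 8.5, 7.85 and 4.92 in MYC_Twist1_HCC. It read 5.58, 3.23 and 2.23 in MYC_OFF and 4.74, 3.9 and 3.22 in MYC_Twist1_OFF, with no overlap in either pair. It was called in MYC_OFF (log2 difference -1.35, relative to the median -0.97, SE 0.29, adjusted p = 0.000636) and narrowly in MYC_Twist1_OFF (log2 difference -0.74, relative to the median -0.42, SE 0.29, adjusted p = 0.0415). The narrow call was lost on scaling by trimmed mean of M values, the median of ratios or the upper quartile (adjusted p = 0.148, 0.309 and 0.299), with a pseudocount of 5 (adjusted p = 0.0607), with no filter on low values (adjusted p = 0.0592) and without any 1 of MYC_Twist1_HCC 1, 2, 3 or 4 or MYC_Twist1_OFF 1, 2 or 3 (adjusted p = 0.054 to 0.138). Slc43a2 stood at 2.12, 2.63, 2.22, 2.76 and 3.78 in MYC_HCC and 3.41, 3.21, 3.48, 3.13 and 3.35 in MYC_Twist1_HCC. It stood at 1, 1.8 and 0.98 in MYC_OFF and 1.16, 1.69 and 2.25 in MYC_Twist1_OFF, again without overlap. The tests gave a log2 difference of -0.71, relative to the median -0.34, SE 0.20, adjusted p = 0.0056 in MYC_OFF and a log2 difference of -0.70, relative to the median -0.37, SE 0.20, adjusted p = 0.00915 in MYC_Twist1_OFF. The first was lost on scaling by trimmed mean of M values, the median of ratios or the upper quartile (adjusted p = 0.0653, 0.154 and 0.155), and the second on scaling by trimmed mean of M values, the median of ratios or the upper quartile (adjusted p = 0.0541, 0.14 and 0.138) and without MYC_Twist1_OFF 1 (adjusted p = 0.07). Slc43a3, the nucleobase carrier, was not called, with means of 2.08 ± 1.16, 2.43 ± 1.08, 2.12 ± 0.54 and 1.16 ± 1.02 in the same 4 groups; in MYC_Twist1_OFF it passed without MYC_Twist1_OFF 3 (-1.06, adjusted p = 0.0228).

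The second question, which lies within the new deposit, was how MYC_Recur stood against MYC_OFF. Of the 31 genes, 12 were higher in MYC_Recur and 5 lower. The rises were in both heavy chains, the leucine and cystine exchangers, the glutamine exchanger Slc1a5, 5 carriers of family 38 and 2 of family 43. This comparison shares its 3 MYC_OFF libraries with MYC_OFF against MYC_HCC, so the values of both are given side by side and not counted against each other. Of all genes tested, 49.4% were called, 37.5% higher and 12% lower, against 38.7% and 16.1% of the 31 genes, which is near the background. The median difference was 0.58 over the 31 genes, 0.45 over all genes and 0.71 over all genes with a mean of at least 5. The median of ratios moved the median of all genes to -0.07 and the higher share of calls from 75.8% to 47.9%. Of the 31 genes, 6 were higher and 7 lower in MYC_Recur on scaling by median of ratios or upper quartile, and 8 higher and 7 lower by trimmed mean of M values. Of 11 hepatocyte markers, 7 were higher and 1 lower in MYC_Recur. The endothelial sums were 9.22 to 14.1 against 35.9 to 91.6 in MYC_OFF, but of 7 endothelial markers tested 1 was higher and 2 were lower. Pecam1 averaged 3.41 against 53.0 in MYC_OFF, while Stab1 averaged 1.99 against 1.11. Of 8 T and NK cell markers tested none was higher and 3 were lower. The part of these markers in the transporter values was not tested.

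Both heavy chains were higher in MYC_Recur. Of the 7 light chains, 2 were higher (Slc7a5 and Slc7a11), 2 were lower (Slc7a6 and Slc7a10) and 3 were not called, among them Slc7a9. Slc3a2 stood at 42.2, 47.9 and 66.9 in MYC_Recur, above all 3 MYC_OFF libraries (log2 difference 1.28, relative to the median 0.82, SE 0.32, adjusted p = 0.00335). That call was lost on scaling by the median of ratios or the upper quartile (adjusted p = 0.108 and 0.0872). Slc3a1 stood at 13.2, 12.3 and 13.3 (log2 difference 1.47, relative to the median 1.01, SE 0.27, adjusted p = 0.000244). Slc7a5, the leucine exchanger, stood at 44.1, 33.1 and 38, with a mean of 38.4 ± 5.52 against 4.99 ± 2.38 (log2 difference 2.79, relative to the median 2.33, SE 0.44, adjusted p = 5.79e-05). The cystine exchanger Slc7a11 stood at 88.3, 69 and 83.2 (log2 difference 1.71, relative to the median 1.26, SE 0.32, adjusted p = 0.00024). For Slc1a5 the MYC_Recur values were 16.9, 26.4 and 30.9 (log2 difference 2.19, relative to the median 1.74, SE 0.43, adjusted p = 0.000398). None of these genes overlapped between the groups, and the calls of Slc3a1, Slc7a5, Slc7a11 and Slc1a5 held under every alternative.

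Of the 8 members of family 38 measured, 5 were higher as well and 1, Slc38a9, was lower, beside 37.5% and 12% of all genes. Slc38a1 had the largest rise of the 31 genes, with MYC_Recur at 12.6, 7.6 and 15.7 and every MYC_OFF library under 1 (log2 difference 3.16, relative to the median 2.70, SE 0.67, adjusted p = 0.000801). Slc38a6 stood at 3.58, 3.74 and 6.74 (log2 difference 1.31, relative to the median 0.86, SE 0.31, adjusted p = 0.00185). Both calls held throughout. For the remaining 3 that were higher the call depended on the scale. Slc38a2 stood at 22.6, 26.3 and 38.1 (log2 difference 1.15, relative to the median 0.69, SE 0.25, adjusted p = 0.0012), lost on scaling by trimmed mean of M values, the median of ratios or the upper quartile (adjusted p = 0.0743, 0.178 and 0.165). Slc38a3 stood at 65.1, 58.1 and 56.9 (log2 difference 0.91, relative to the median 0.45, SE 0.23, adjusted p = 0.00331), lost on scaling by trimmed mean of M values, the median of ratios or the upper quartile (adjusted p = 0.124, 0.383 and 0.319). The other hepatocyte carrier, Slc38a4, stood at 40.1, 25.8 and 26.8 (log2 difference 1.16, relative to the median 0.70, SE 0.41, adjusted p = 0.025), lost on scaling by trimmed mean of M values, the median of ratios, the upper quartile or equal totals (adjusted p = 0.183, 0.325, 0.283 and 0.0567) and without MYC_OFF 2 or 3 or MYC_Recur 1 (adjusted p = 0.0696, 0.0713 and 0.1).

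The diffusion carriers of family 43 were the last 2 of the 12. Slc43a1 stood at 6.66, 9.82 and 14.2 (log2 difference 1.27, relative to the median 0.81, SE 0.32, adjusted p = 0.0033), and its call was lost on scaling by the median of ratios or the upper quartile (adjusted p = 0.0769 and 0.0633). Slc43a2 stood at 2.42, 1.96 and 2.8 (log2 difference 0.60, relative to the median 0.14, SE 0.23, adjusted p = 0.0347), and its call was lost on scaling by trimmed mean of M values, the median of ratios, the upper quartile or equal totals (adjusted p = 0.35, 0.587, 0.541 and 0.088), with a pseudocount of 5 (adjusted p = 0.0521), with only the compared groups in the fit (adjusted p = 0.124) and without any 1 of MYC_OFF 1 or 3 or MYC_Recur 1 or 3 (adjusted p = 0.0751 to 0.107). Neither gene overlapped between the groups.

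The 5 genes that were lower in MYC_Recur than in MYC_OFF were exchangers, a glutamate carrier and lysosomal members. Slc7a10 stood at 0.14, 0.17 and 0.05, under every MYC_OFF library (log2 difference -1.62, relative to the median -2.07, SE 0.39, adjusted p = 0.00221), and this call held throughout. Slc36a1 was at 0.02, 0 and 0.08 in MYC_Recur against 1.43, 2.44 and 0.7 in MYC_OFF (log2 difference -1.23, relative to the median -1.68, SE 0.38, adjusted p = 0.0133), lost with a pseudocount of 5 (adjusted p = 0.126) and without MYC_OFF 2 (adjusted p = 0.069). Slc7a6 was at 11.6, 21.3 and 11.8, all under the MYC_OFF values of 39, 24 and 21.4 (log2 difference -0.88, relative to the median -1.33, SE 0.34, adjusted p = 0.0397); the call was lost with no filter on low values (adjusted p = 0.055), with only the compared groups in the fit (adjusted p = 0.0854) and without any 1 of MYC_OFF 1 or 2 or MYC_Recur 1 or 3 (adjusted p = 0.0531 to 0.168). Slc1a2 was listed at 0 in all 3 MYC_Recur libraries, so no fold is given (adjusted p = 0.0433), and its call was lost with a pseudocount of 5 (adjusted p = 0.0825), with no filter on low values (adjusted p = 0.0635), with only the compared groups in the fit (adjusted p = 0.111) and without any 1 of MYC_OFF 2 or MYC_Recur 1, 2 or 3 (adjusted p = 0.0804 to 0.292). Slc38a9, which senses lysosomal arginine for mTORC1, was at 0.33, 0.41 and 0.21 in MYC_Recur and at 1.2, 0.72 and 0.84 in MYC_OFF (log2 difference -0.54, relative to the median -0.99, SE 0.21, adjusted p = 0.0388); its values were 1.14, 0.95, 0.59, 0.94 and 0.98 in MYC_HCC and 1.16, 1.28, 0.66, 1.09 and 1.46 in MYC_Twist1_HCC, and 1.38, 0.92 and 0.97 in MYC_Twist1_OFF. That call was lost with a pseudocount of 5 (adjusted p = 0.0769), with only the compared groups in the fit (adjusted p = 0.0937) and without any 1 of MYC_OFF 1 or 3 or MYC_Recur 1, 2 or 3 (adjusted p = 0.051 to 0.107).

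Against MYC_HCC, a comparison across deposits, MYC_Recur differed in 2 of the 31 genes, both lower. Of all genes tested, 10.8% were called, 6.9% higher and 3.93% lower. Slc36a1 was close to 0 in all 3 MYC_Recur libraries and between 3.70 and 6.46 in MYC_HCC (log2 difference -2.51, SE 0.34, adjusted p = 0.000193), a call that held under every alternative except the restriction to genes with a mean of at least 5, which leaves the gene out. Slc7a7 was at 0, 0.16 and 0 in MYC_Recur, below every MYC_HCC library (log2 difference -2.98, SE 0.71, adjusted p = 0.0118); the call was lost with only the compared groups in the fit (adjusted p = 0.0602), and the same restriction leaves it out too. None of the genes called lower in both OFF comparisons other than Slc36a1 was called here. The log2 differences, MYC_Recur minus MYC_HCC, were -0.05 for Slc3a2, 0.03 for Slc7a5, -0.02 for Slc7a11, 0.24 for Slc1a5 and 0.00 for Slc38a2, with 95% intervals of -0.66 to 0.55, -0.80 to 0.86, -0.61 to 0.57, -0.56 to 1.04 and -0.47 to 0.48. They were -0.08 for Slc38a3, -0.08 for Slc43a1 and -0.12 for Slc43a2, with intervals of -0.51 to 0.35, -0.69 to 0.52 and -0.54 to 0.31. The remaining 3 lay further from 0, at -0.50 for Slc3a1, 1.30 for Slc38a1 and -0.69 for Slc38a4, with intervals of -1.01 to 0.01, 0.05 to 2.55 and -1.45 to 0.08. Slc1a3 passed, higher, with a pseudocount of 0.1 (1.99, adjusted p = 0.0237) and with only the compared groups in the fit (0.95, adjusted p = 0.0312). Slc38a9 passed, lower, with that pseudocount (-1.30, adjusted p = 0.0248) and with no filter on low values (-0.54, adjusted p = 0.0297).

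For the other genes MYC_Recur lay as follows. Slc7a8 was at 27, 21.5 and 23.2, Slc7a2 at 17.6, 23.2 and 12.6, Slc7a14 at 4.99, 5.44 and 5.63 and Slc7a6os at 39.4, 44.7 and 38.5. Means were 8.21 ± 0.95 for Slc7a9, 18.7 ± 3.54 for Slc7a1, 3.62 ± 1.74 for Slc7a3, 5.45 ± 1.66 for Slc1a1 and 1.64 ± 0.97 for Slc1a3. In families 38, 36 and 43 they were 6.12 ± 0.99 for Slc38a7, 29.9 ± 3.68 for Slc38a10, 15.4 ± 2.29 for Slc36a2 and 2.06 ± 0.75 for Slc43a3. None of these 13 genes was called against MYC_OFF or MYC_HCC. Slc38a10 was called higher than MYC_OFF without MYC_OFF 2, at 1.44 with an adjusted p = 0.0113, and Slc7a2 and Slc7a6os were called lower after 3 of the 4 rescalings, by the median of ratios at -1.22 and -0.81 with adjusted p = 0.0113 and 0.00616.

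**Figure D4:**
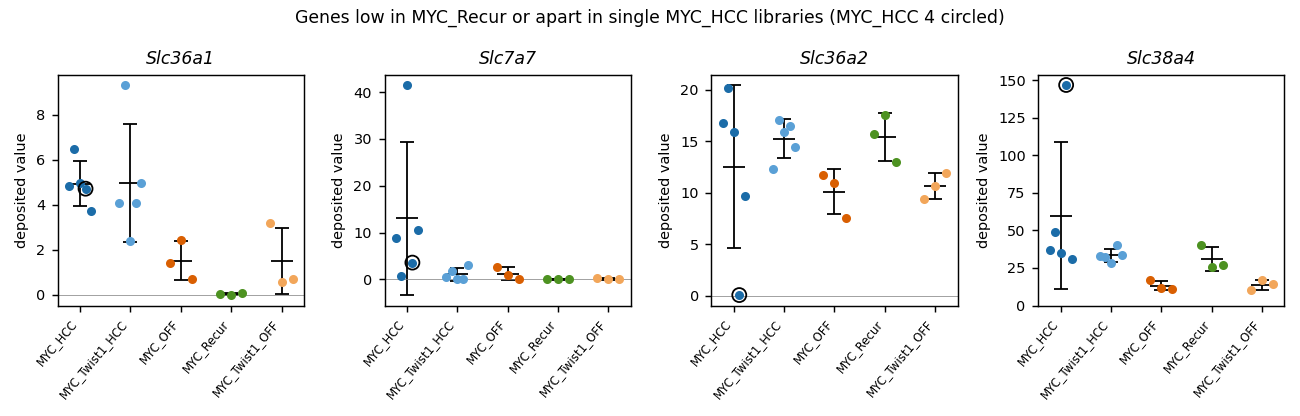
Each panel plots the deposited value of a gene (vertical axis) in every library (points) by group, with bars for the mean ± SD (n = 5, 5, 3, 3 and 3); a ring marks MYC_HCC 4. Slc36a1 and Slc7a7 lie at or near 0 in the 3 MYC_Recur libraries, and MYC_HCC 4 is at 0.07 for Slc36a2 and 146.8 for Slc38a4.

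The third question was whether the groups labelled Twist1 differed from the others. In MYC_Twist1_HCC against MYC_HCC, both from the earlier deposit, 1 of the 31 genes was higher and 1 lower, beside 6.43% of all genes, 3.2% higher and 3.23% lower. The gene that rose was Slc7a6os (chromosome 8, 106200717 to 106210935), which is not a transporter. It read 33.6, 31, 37.3, 20.3 and 30.5 in MYC_HCC and 52.5, 49.8, 46.8, 48.7 and 71.1 in MYC_Twist1_HCC, without overlap (log2 difference 0.81, SE 0.17, adjusted p = 0.00804), and the call held under every alternative. In the OFF groups it read 47, 47.7 and 41.4 in MYC_OFF and 47, 44.2 and 53.3 in MYC_Twist1_OFF, and it was also called higher in MYC_OFF than in MYC_HCC (log2 difference 0.58, relative to the median 0.96, SE 0.19, adjusted p = 0.0147), a call lost with only the compared groups in the fit (adjusted p = 0.0569), without both MYC_HCC 4 and 5 (adjusted p = 0.0576) and without MYC_OFF 2 (adjusted p = 0.05). The gene that fell was Slc7a7, whose library values are above (log2 difference -2.23, SE 0.62, adjusted p = 0.0396); 4 of 5 MYC_Twist1_HCC libraries were under 2, but so was MYC_HCC 2. Its call was lost with a pseudocount of 0.1 (adjusted p = 0.0573), with a pseudocount of 5 (adjusted p = 0.0546), with no filter on low values (adjusted p = 0.069), with only the compared groups in the fit (adjusted p = 0.0804), without both MYC_HCC 4 and 5 (adjusted p = 0.0949) and without any 1 of MYC_HCC 1, 3 or 5 or MYC_Twist1_HCC 1, 3 or 4 (adjusted p = 0.0709 to 0.0882). A further 3 genes passed an unadjusted p of 0.05 alone. They were Slc1a3, Slc3a1 and Slc7a1, with no overlap between the groups (log2 differences 0.70, -0.69 and 1.14, adjusted p = 0.135, 0.0564 and 0.0566). Of these, Slc3a1 was called under 5 alternatives (adjusted p = 0.0355 to 0.0455), and Slc7a1 with only the compared groups in the fit (adjusted p = 0.028) and among genes with a mean of at least 5 (adjusted p = 0.047).

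In MYC_Twist1_OFF against MYC_OFF, limma called none of the 31 genes and 0.00755% of all genes; 1 of the 31, Slc1a3, had an unadjusted p under 0.05 (log2 difference 0.89, adjusted p = 1.0). The OFF difference itself was compared between the Twist1 and MYC groups as an interaction, and limma called none of the 31, beside 0.0981% of all genes, 0.0226% higher and 0.0755% lower. Only Slc7a6os had an unadjusted p under 0.05 there (log2 difference -0.72, adjusted p = 0.558). The genes called in one OFF comparison alone, such as Slc38a6, Slc7a7 and Slc7a3, are therefore not shown to differ between them. With 3 libraries in each OFF group the intervals are wide: for Slc7a5 the interaction was 0.52 with a 95% interval of -0.65 to 1.70.

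Genes that work with these carriers were described by lists, each by its counts and with no list test. The background was 18.9% of all genes higher and 39.4% lower in MYC_OFF. It was 13.1% and 33.5% in MYC_Twist1_OFF, and 37.5% and 12% in MYC_Recur against MYC_OFF. Of 8 other amino acid carriers of the plasma membrane and lysosome tested, 2 were higher and 2 lower in MYC_OFF (25% each). Slc6a6, the taurine carrier, fell from 25.2 ± 5.82 to 3.94 ± 0.63 (log2 difference -2.38, adjusted p = 1.11e-06) and stood at 68.1 ± 35.6 in MYC_Recur (log2 difference 3.69, adjusted p = 4.72e-07 against MYC_OFF). Slc16a10, which lets aromatic amino acids through, fell from 27.9 ± 15.7 to 3.03 ± 2.13 (log2 difference -2.86, adjusted p = 0.00199). Slc15a4, a lysosomal carrier of histidine and peptides, rose from 4.88 ± 2.2 to 60.7 ± 49 (log2 difference 3.22, adjusted p = 6.58e-05). The fourth call was a rise of Slc6a15, which was listed at 0 in all 5 MYC_HCC libraries. In MYC_Recur against MYC_OFF 3 were higher and 3 lower (37.5% each).

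Mitochondrial amino acid carriers were lower in 4 of 10 tested (40%, near the background) and higher in none in MYC_OFF. In MYC_Twist1_OFF 4 were lower and 1 higher (40% and 10%). Slc25a22, which carries glutamate into mitochondria, fell from 31.2 ± 9.8 to 2.78 ± 0.57 (log2 difference -3.06, adjusted p = 1.17e-07). Slc25a15, the ornithine carrier of the urea cycle, fell from 42.8 ± 3.59 to 8.38 ± 4.88 (log2 difference -2.36, adjusted p = 9.99e-06), and Slc25a44, a carrier of branched-chain amino acids, from 25 ± 5.38 to 4.6 ± 1.44 (log2 difference -2.23, adjusted p = 1.21e-05). Sfxn2 was the fourth (log2 difference -1.71, adjusted p = 3.77e-06). In MYC_Recur, 4 of the 10 were higher than in MYC_OFF (40%, near the background) and none lower, with means of 28.7 ± 7.32 for Slc25a22, 104 ± 27 for Slc25a15, 35.1 ± 16.5 for Slc25a44 and 31.9 ± 7.45 for Sfxn2.

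Of 34 genes that carry amino acid supply to mTORC1, the kinase complex that couples nutrients to growth, 5 were higher and 14 lower in MYC_OFF (14.7% and 41.2%, near the background). Lamtor5, part of the lysosomal anchor of the Rag GTPases, fell from 37.8 ± 14.6 to 2.28 ± 1.46 (log2 difference -3.57, adjusted p = 1.38e-07), and the Rag GTPase Rraga from 30.1 ± 5.41 to 8.09 ± 3.56 (log2 difference -1.83, adjusted p = 7.83e-06). Rheb, the GTPase that activates mTORC1, fell from 57.1 ± 3.1 to 28.8 ± 1.6 (log2 difference -0.96, adjusted p = 1.15e-05). Fnip2, a partner of folliculin, rose from 3.82 ± 0.56 to 13.6 ± 2.17 (log2 difference 1.60, adjusted p = 1.02e-05). MYC_Recur had 16 higher and 4 lower than MYC_OFF (47.1% and 11.8%), beside 37.5% and 12% of all genes.

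Of 24 genes of the amino acid stress response that ATF4 directs, 1 was higher and 12 lower in MYC_OFF (4.17% and 50%). Of all genes 18.9% were higher and 39.4% lower there. In MYC_Twist1_OFF 1 was higher and 9 lower (4.17% and 37.5%), beside 13.1% and 33.5% of all genes, so the lower share was near the background. Cebpb, a transcription factor that pairs with ATF4, fell from 16.9 ± 2.33 to 3.54 ± 0.1 (log2 difference -1.97, adjusted p = 5.48e-07), and Eif4ebp1, the translation repressor, from 137 ± 30.7 to 26.2 ± 7.5 (log2 difference -2.35, adjusted p = 4.9e-07). Eif2s1, the subunit whose phosphorylation starts the response, fell from 81.1 ± 10.7 to 26.3 ± 5.93 (log2 difference -1.60, adjusted p = 2.33e-06). The gene that rose was Pycr1, an enzyme of proline synthesis, from 2.03 ± 0.66 to 34.7 ± 4.58 (log2 difference 3.58, adjusted p = 5.29e-07). In MYC_Recur 10 were higher and 1 lower than in MYC_OFF (41.7% and 4.17%). Beside 37.5% and 12% of all genes, the higher share was near the background.

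Among 12 genes of glutamine and glutamate metabolism, 7 were lower and 1 higher in each OFF comparison (58.3% and 8.33%). Of all genes, 39.4% were lower and 18.9% higher in MYC_OFF, and 33.5% and 13.1% in MYC_Twist1_OFF. Asns, asparagine synthetase, fell from 124 ± 25 to 21.3 ± 4.39 (log2 difference -2.48, adjusted p = 3.07e-06), and the aminotransferases Gpt2 and Got1 from 113 ± 56.2 to 16.4 ± 6.9 and from 41.8 ± 6.57 to 11 ± 2.7 (log2 differences -2.66 and -1.85, adjusted p = 8.31e-07 and 2.67e-06). The liver glutaminase Gls2 fell from 31.9 ± 8.12 to 11 ± 1.35 (log2 difference -1.43, adjusted p = 8e-06). Gpt2 was also called lower in MYC_Twist1_HCC than in MYC_HCC (log2 difference -1.07, adjusted p = 0.0182), and this call was lost without MYC_Twist1_HCC 5 (adjusted p = 0.0514) and without both MYC_HCC 4 and 5 (adjusted p = 0.0657).

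Cystine that enters through Slc7a11 feeds glutathione synthesis. Of 13 genes of that pathway 6 were lower and 2 higher in MYC_OFF (46.2% and 15.4%). Of all genes 39.4% were lower and 18.9% higher, so the shares were near the background. Gclm, the modifier subunit of the first enzyme of the pathway, fell from 61.9 ± 24.4 to 15 ± 1.04 (log2 difference -1.86, adjusted p = 0.000103). Gss, which makes glutathione, fell from 66.2 ± 12.2 to 22.6 ± 1.8 (log2 difference -1.49, adjusted p = 0.000696), Gsr, which regenerates it, from 48.2 ± 6.42 to 20.6 ± 5.23 (log2 difference -1.21, adjusted p = 0.000227), and Cbs, which starts the making of cysteine from homocysteine, from 57.5 ± 14.4 to 20.2 ± 1.1 (log2 difference -1.44, adjusted p = 2.88e-05). The dipeptidase Cndp2 rose (log2 difference 1.06, adjusted p = 0.00222). In MYC_Recur Gclm was at 103 ± 26.7, while Gclc, the catalytic subunit it serves, was at 1.3 ± 0.69, lower than in MYC_OFF (13.5 ± 7.83; log2 difference -2.58, adjusted p = 0.000461) and than in MYC_HCC (26.8 ± 17.9; log2 difference -3.43, adjusted p = 0.000156).

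The 11 genes that were not measured were Slc7a4, Slc7a13 and Slc7a15 of family 7, Slc1a4, Slc1a6 and Slc1a7 of family 1, Slc38a5, Slc38a8 and Slc38a11 of family 38, and Slc36a3 and Slc36a4 of family 36. They were left out of the main test, and only the alternative with no filter on low values tested them.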

How the data were processed

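Total RNA of 19 mouse liver tumour libraries was measured by RNA sequencing. The authors deposited one table of normalised signal per gene symbol, with 2 decimals; what the signal is relative to is not given in the sources used here. Trimmomatic, STAR, Picard, featureCounts, DESeq2 and mm10 are named per the submitters' processing notes, with no versions or order, and strand use in the read counting is not stated there. Library totals of the deposited signal were 507868 to 690310; read depth is unknown, so no counting interval is given, and a value of 0 means only that the gene is listed at 0.

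Of 19511 rows, 25 whose symbol is a bare number were left out, and 18142 of the remaining 19486 symbols matched a gene of the reference annotation. No 2 libraries held identical values. Genes with a value of at least 1 in at least 3 libraries (13253) entered limma 3.58.1 in R 4.3.3, on log2(value + 1), with the 5 group means in 1 fit (14 residual degrees of freedom), an intensity trend and empirical Bayes. P-values were adjusted by Benjamini-Hochberg over all genes tested, separately in each comparison. Differences on the log2(value + 1) scale understate changes of low genes. The procedure was tested on simulated data before use. Library values are given for genes called in an OFF comparison without overlap or in a comparison within a deposit, and for the principal exchangers; other measured genes have group means or ranges. The genes, pathway lists and marker lists were chosen with earlier results of these data known. Alternatives covered 4 rescalings, 2 other pseudocounts, 2 other filters, no trend, fitting only the groups compared, the replicate number as a block, leaving out each library, and leaving out MYC_HCC 4 and 5. Values of 1 gene of the pathway lists are not reported here.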

Additional observations from a re-analysis of the deposited data

Results flagged for a closer look

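In the groups of 5 libraries, 9 of 62 gene and group combinations had a highest or lowest library whose gap to the next exceeded 0.71 of the group's range, the 95% critical value of Dixon's test, which chance exceeds in about 1 in 20. In MYC_HCC 4 there were 4 of them: Slc7a10 at 0.95 and Slc38a4 at 146.8 were the highest of their group, and Slc1a1, listed at 0, and Slc1a5, at 6.59, the lowest. In MYC_HCC 3, Slc7a7 was the highest at 41.5. In MYC_Twist1_HCC 5, Slc7a2 at 24.65 and Slc7a6os at 71.1 were the highest. In MYC_Twist1_HCC 3, Slc7a8 was the highest at 28.7, and in MYC_Twist1_HCC 1, Slc1a3 at 2.67.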

How the results depend on the processing

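Of 59 calls of a gene in a comparison, 29 held under every alternative that tested them, 30 were lost under at least 1, and none changed sign. Slc36a2, not called in MYC_OFF against MYC_HCC, turned from 0.22 to -0.56 without MYC_HCC 4 and to -0.76 without MYC_HCC 4 and 5, with -0.56 to 0.51 over the libraries left out singly. In MYC_OFF against MYC_HCC the 7 genes higher became 4 with a mean of at least 5, 2 with only the groups compared, 3 without MYC_HCC 4 and 5, 9 by the median of ratios, the upper quartile or no filter, and 4 to 7 with 1 library left out; the 14 lower became 10 with that mean filter, 11 by those 2 rescalings, 16 with no filter and 13 to 17 with 1 library left out. In MYC_Twist1_OFF against MYC_Twist1_HCC the 13 lower became 8 by the median of ratios and 8 by the upper quartile, and 9 to 13 with 1 library left out; the 4 higher became 3 to 4. In MYC_Twist1_HCC against MYC_HCC the 1 higher became 2 with a mean of at least 5 and 2 with only the groups compared. The 1 lower there became 2 under each rescaling but equal totals, 0 with a pseudocount of 0.1, with only the groups compared and without MYC_HCC 4 and 5, and 0 to 1 with 1 library left out. In MYC_Recur against MYC_OFF the 12 higher became 6 by the median of ratios and 6 by the upper quartile, and 10 to 12 with 1 library left out; the 5 lower became 7 under each rescaling but equal totals, 2 with a pseudocount of 5, 1 with a mean of at least 5, 2 with only the groups compared, and 2 to 4 with 1 library left out. In MYC_Recur against MYC_HCC the 0 higher became 1 with a pseudocount of 0.1 and 1 with only the groups compared, and the 2 lower became 0 with a mean of at least 5, 1 with only the groups compared, and 3 with a pseudocount of 0.1 or no filter. The mean filter leaves out low genes. With no filter all 42 genes were tested, so those counts take in the 11 marked as not measured. For the other alternatives the cause was not tested.

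The deviations of libraries with the same replicate number had correlations of -0.17 to 0.38. In no comparison were all of them over 0.1, so the numbers were not treated as pairs. Some were over 0.1 in the comparisons with MYC_Twist1_OFF, in MYC_Twist1_HCC against MYC_HCC (up to 0.147) and in MYC_Recur against MYC_HCC (0.124). With the replicate block, 53 of the 59 calls held and 6 were lost: Slc3a2, Slc7a6 and Slc7a8 in MYC_Twist1_OFF against MYC_Twist1_HCC (adjusted p = 0.0538, 0.0709 and 0.0832), Slc7a8 and Slc1a2 in MYC_OFF against MYC_HCC (0.0696 and 0.0952), and Slc1a2 in MYC_Recur against MYC_OFF (0.075); the genes higher and lower were 5 and 14 in MYC_OFF against MYC_HCC, 2 and 12 in MYC_Twist1_OFF against MYC_Twist1_HCC, and 12 and 4 in MYC_Recur against MYC_OFF. With read depth unknown, values near 0 cannot be given a counting error.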
